A study of Caenorhabditis elegans with 52 samples.

Results

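The unclassed piRNAs of the Y51H4A and Y116A8 clones are 859 of the 14680 piRNAs in the deposited table, or 5.85%. They were chosen by name and class alone: their sequence names start with Y51H4A or Y116A8, and the authors' class column calls them neither Spermatogenic nor Oogenic. The same clones hold 1425 piRNAs of any class, of which 395 are Spermatogenic and 171 Oogenic. All 859 matched a RefSeq piRNA of the same name on chromosome IV in the WBcel235 gene table, each annotated with a length of 21 bases. In that table's order, 12316 of the 14178 chromosome IV piRNAs lie to the left of the first of them and 68 lie to the right of the last. The label of a distal stretch of the right-hand chromosome IV cluster thus holds in that order. From left to right the clones run Y51H4A with 482 of these piRNAs, Y116A8A with 71, Y116A8C with 255 and Y116A8B with 51.

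piRNAs of Caenorhabditis elegans are germline small RNAs that guide the Piwi protein PRG-1 to foreign and self transcripts. Most are made one by one, each from its own short RNA polymerase II transcript with a motif upstream, and most such units crowd into clusters on chromosome IV. The precursor loses bases at its 5′ end, is trimmed at its 3′ end by the exonuclease PARN-1, and receives a 3′-terminal methyl group from HENN-1. PUP-1 is a poly(U) polymerase that can add uridines to RNA 3′ ends, DISL-2 is the homolog of the uridine-preferring 3′ to 5′ exonuclease DIS3L2, and TOFU-5 is needed for piRNA transcription.

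Small RNAs were sequenced from whole day 1 adults in 42 libraries, 2 for each of 21 groups. The steady-state groups were disl-2(how27) and disl-2(tm5337) mutants with a disl-2 isogenic control, the double mutant disl-2(how18); henn-1(tm4477) with the single mutant henn-1(tm4477), and the double mutant disl-2(tm5337); parn-1(tm869) with the single mutant parn-1(tm869). A further experiment had the double mutants disl-2(how27); pup-1(how20) and disl-2(tm5337); pup-1(how50), the single mutant pup-1(tm1021) and a pup-1 paired control. The doubles and the single thus carry different pup-1 alleles. In the time course, animals carrying gfp::aid::tofu-5(how48) and sun-1p::mcherry::tirI, with or without disl-2(how27), were sampled at 0, 2, 4, 6 and 12 h of TOFU-5 depletion, and the labels give 4 mM auxin at every time, 0 h included. Each library came from a pool of many animals. The column headers call the pup-1 paired control N2, the standard wild-type strain, and what the disl-2 isogenic control carries is not in the labels. TIR1, the receptor through which auxin depletes the tagged TOFU-5, is driven there by the sun-1 promoter, which is active in the germline. The piRNA table holds no mRNA, so neither the mutations nor the depletion could be checked in it. In whole animals, fewer germ cells and fewer piRNAs per cell cannot be told apart.

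Levels are in RPM, that is, reads scaled to library depth, at depths between 8807176 and 52798564 reads per library, so a level of 0 allows up to 0.0568 to 0.341 RPM. Of the 859 piRNAs, 858 were above 0 in some library and 451 to 790 were above 0 in any 1 library. For 180 of them (21%, against 22.8% of all piRNAs) some values were fractions of a read, so reads were divided between loci, and 22 fell into 10 sets with identical values. Tests covered piRNAs that averaged 1 RPM or more over the libraries of an experiment: 281 of the 859 in the disl-2 experiment, 476 with henn-1, 222 with parn-1, 269 with pup-1 and 208 in the time course. In all, 372 passed in no experiment, and none of these exceeded 2.14 RPM in any library. Changes are log2 differences of RPM + 0.5 from limma, given ± SE, and a piRNA rose or fell where its p-value, adjusted over all piRNAs tested, was under 0.05. Whether the 2 libraries of a group stem from separate cultures is not in the labels. The p-values thus reflect only the spread of these libraries, part of which may be technical. For each piRNA, limma combines its own variance with a trend fitted across all piRNAs tested. The trend carried 1830 degrees of freedom with parn-1, 62.6 with disl-2 and 24.7 with pup-1, against 2, 3 and 4 from replicates. With henn-1 the values were 5.57 against 2, and in the time course 11 against 16. Outside the time course, a p-value thus rests more on the trend than on the piRNA's own replicates.

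Most of the signal came from few of these piRNAs. Over the 4 libraries of the disl-2 isogenic control and the pup-1 paired control their median was 0.295 RPM, against 0.451 RPM over all piRNAs, and 297 of the 858 listed there averaged 1 RPM or more (34.6%, against 38.5% of all piRNAs). The 10 most abundant made up 31.4% of the summed level and the 100 most abundant 84.9%. In the controls the Oogenic piRNAs of the same clones had a median of 1.32 RPM and the Spermatogenic ones 0.822 RPM. Y51H4A piRNAs carried 55.6% of the sum, Y116A8C 29.8%, Y116A8B 9.33% and Y116A8A 5.32%. Of the 859, 89 (10.4%) lie inside an annotated coding gene, against 37.5% of all piRNAs, and 3 genes hold 10 or more of them: sta-1, a STAT transcription factor gene, with 16, uroc-1, named for urocanate hydratase, with 15, and cnnm-1, named for a CNNM-type metal transporter, with 10.

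The most abundant were 21ur-4508 with a mean of 252 RPM over the 4 control libraries, 21ur-7562 with 220 RPM, 21ur-507 with 177 RPM, 21ur-470 with 176 RPM and 21ur-4290 with 166 RPM. They were followed by 21ur-6719 (134 RPM), 21ur-4983 (127 RPM), 21ur-6291 (119 RPM), 21ur-5702 (115 RPM) and 21ur-4684 (108 RPM). Reads of 21ur-4290 and 21ur-6719 were divided with other loci, so their levels are uncertain. In both parn-1 strains these 10 were a much smaller part. The 10 together held 7.94% and 7.83% of the summed level in disl-2 parn-1 double mutants and 6.8% and 7.07% in parn-1 single mutants, against 34.3% and 34.0% in the disl-2 isogenic control and 28.5% and 29.3% in the pup-1 paired control. 21ur-4983 was at 3.16 and 2.94 RPM in parn-1 mutants, against 143 and 170 RPM in the disl-2 isogenic control. The parn-1 libraries have no control of their own, so this difference was not tested. The 10 were picked by their level in the controls shown, which favours a larger part there.

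**Figure D1:**
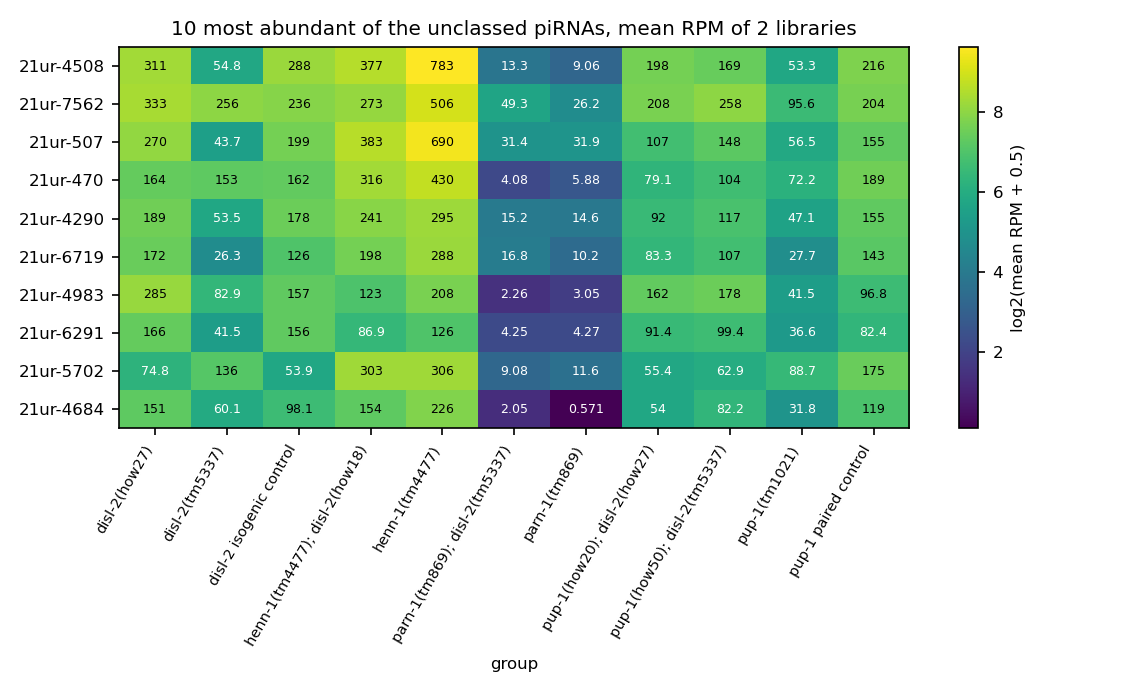
Mean RPM of 2 libraries for the 10 most abundant of the 859 piRNAs (down) in the 11 steady-state groups (across), coloured by log2(mean RPM + 0.5). The 2 parn-1 columns are the darkest, and 21ur-4508 stands at 54.8 RPM in disl-2(tm5337) and 53.3 RPM in pup-1(tm1021), against 288 and 216 RPM in their controls.

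The summed level of the 859 piRNAs moved with that of all piRNAs. It was 6740 and 5769 RPM in disl-2(how27) mutants, 4018 and 3383 RPM in disl-2(tm5337), and 5105 and 4561 RPM in the isogenic control, so neither mutant overlapped the control. In the double mutants with henn-1 the sum was 14390 and 13677 RPM, against 16315 and 18728 RPM in henn-1 single mutants. In the double mutants with parn-1 it was 1861 and 1884 RPM, against 1818 and 1569 RPM in parn-1 single mutants. The pup-1 doubles with disl-2(how27) had 3987 and 4090 RPM, those with disl-2(tm5337) 4848 and 3897 RPM, pup-1(tm1021) 3108 and 2646 RPM, and the paired control 5321 and 5298 RPM. With 2 libraries a group, an exact permutation test of these sums could not reach 0.05, so none is given. As a share of all piRNA RPM the 859 stayed between 5.50% and 7.29% in every library. The highest shares, 7.08% and 7.29%, were those of the parn-1 single mutants.

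**Figure D2:**
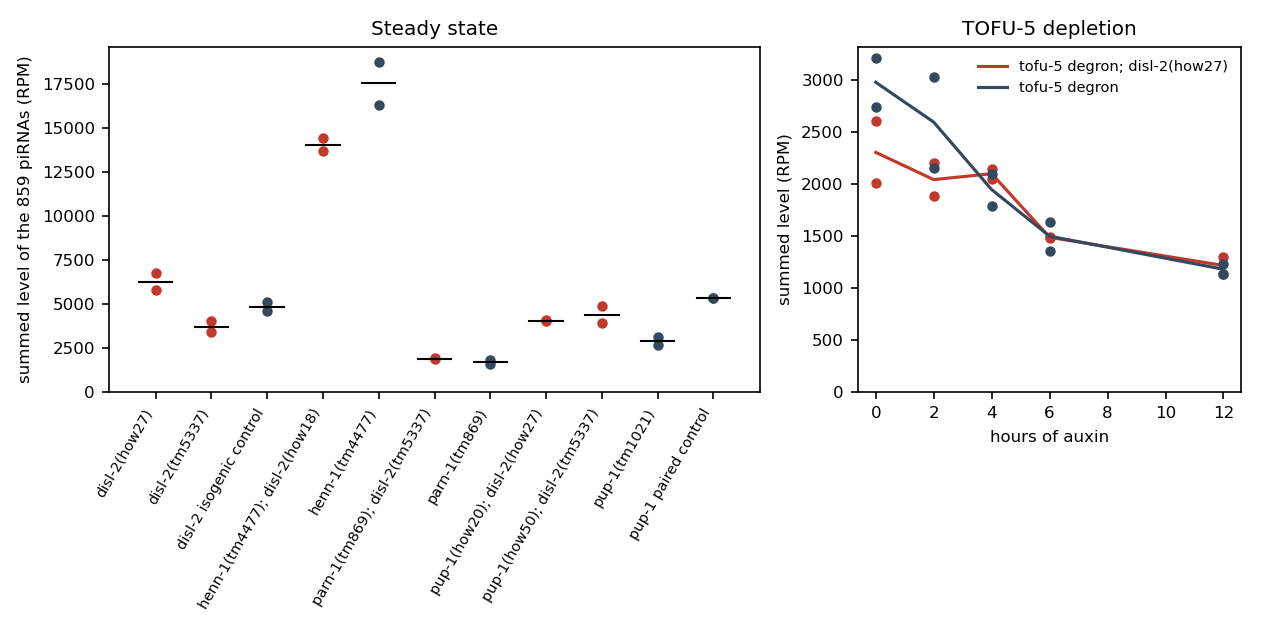
Summed RPM of the 859 piRNAs per library (points) with the mean of the 2 libraries (bars, left; lines, right), in steady state and over hours of auxin; red marks strains with a disl-2 mutation. The henn-1 strains stand highest, between 13677 and 18728 RPM, and the parn-1 strains lowest of the steady-state groups, between 1569 and 1884 RPM.

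In disl-2(how27) mutants, part of these piRNAs were higher than in the isogenic control and none passed as lower. The limma test called 54 of 281 higher (19.2%), against 20.6% of all piRNAs tested, and 0 lower, against 0.0356%. At an unadjusted p under 0.05, 100 were higher and 0 lower, and limma voom on estimated reads called 42 higher and 0 lower. The median change was 0.44, against 0.47 over all piRNAs. The largest rise among the piRNAs that the naming rule admits was 21ur-6817, which lies in the gene Y116A8C.3, at 14.3 and 11.9 RPM in the mutant, against 7.48 and 3.90 RPM in the control (1.19 ± 0.29, adjusted p = 0.00508). 21ur-5827 had 18 and 16.4 RPM in the mutant, against 6.62 and 8.65 RPM in the control (1.13 ± 0.28, adjusted p = 0.00519). For each, both mutant libraries stood above both control libraries, which the naming rule requires. Of the abundant piRNAs, 21ur-4983 rose, with 307 and 262 RPM in disl-2(how27) against 143 and 170 RPM in the control (0.86 ± 0.20, adjusted p = 0.00327). 21ur-4508, the most abundant, had 355 and 268 RPM in the mutant, against 306 and 269 RPM in the control, and its libraries overlapped.

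These rises depended on the scale and on single libraries. RPM are relative to all reads of a library, and rescaling the libraries to equal medians, which removed a shift of 0.51 in the median of all piRNAs, left 4 of the 281 higher and 7 lower (1.35% and 1.74% of all piRNAs), and none of the piRNAs named above passed. When low values were not filtered out, limma called 0 of 802 members higher and 0 lower (155 at an unadjusted p under 0.05). Over all piRNAs it then called 0 higher and 0 lower too. Without disl-2(how27) replicate 1, 21ur-6817, 21ur-5827 and 21ur-4983 no longer passed (changes of 1.06, 1.06 and 0.75), and the same held for 21ur-6817 without control replicate 2 (0.76) and for 21ur-5827 without control replicate 1 (0.95). The count of 54 became 0 without disl-2(how27) replicate 1 (24 at an unadjusted p under 0.05), 28 without its replicate 2, 28 and 7 without control replicates 1 and 2, and 87 and 89 without disl-2(tm5337) replicates 1 and 2.

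In disl-2(tm5337) mutants more of these piRNAs fell than rose. Of 281 tested, 31 were higher (11%, against 13.5% of all piRNAs) and 83 lower (29.5%, against 26.9%), with a median of -0.13, against -0.19 over all. The falls took in 7 of the 10 most abundant piRNAs. These were picked by their level in this control and the pup-1 paired control, which favours falls against either. 21ur-4508 had 56.1 and 53.6 RPM in disl-2(tm5337), against 306 and 269 RPM in the control (-2.38 ± 0.19, adjusted p = 5.94e-16). 21ur-507 had 48.7 and 38.7 RPM in the mutant, against 206 and 193 RPM in the control (-2.18 ± 0.20, adjusted p = 6.69e-14). 21ur-6291 had 43.8 and 39.2 RPM in the mutant, against 153 and 160 RPM in the control (-1.90 ± 0.20, adjusted p = 9.13e-12). In all 3 the mutant libraries lay far below the control libraries, and the fall held without any single library and after rescaling. 21ur-470, of like abundance, had 153 RPM in both mutant libraries and 158 and 167 RPM in the control, and did not pass (adjusted p = 0.749).

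Other members rose in the same libraries. 21ur-4692 had 20.8 and 11.8 RPM in disl-2(tm5337), against 4.53 and 2.62 RPM in the control (2.03 ± 0.29, adjusted p = 5.71e-08). It also rose in disl-2(how27), to 8.08 and 7.86 RPM against the same control libraries (1.09 ± 0.29, adjusted p = 0.00834, and 0.152 after rescaling). 21ur-5702 was the only one of the 10 abundant piRNAs to rise in this comparison, with 165 and 106 RPM in disl-2(tm5337) against 59.6 and 48.1 RPM in the control (1.30 ± 0.22, adjusted p = 2.65e-06). In the pup-1 paired control that piRNA was at 169 and 182 RPM, above both libraries of this mutant. After rescaling, which removed a shift of -0.12 in the median of all piRNAs, 56 of the 281 were higher and 86 lower (22.2% and 27.5% of all piRNAs). The rises numbered 16 and 48 without disl-2(tm5337) replicates 1 and 2 and 20 without control replicate 2. The falls numbered 54 without disl-2(tm5337) replicate 2 and 47 without control replicate 1.

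The 2 alleles, which share the control libraries, were also compared directly. In disl-2(how27) against disl-2(tm5337), 131 of 281 were higher (46.6%, against 50.5% of all piRNAs) and 12 lower (4.27%, against 4.79%), with a median of 0.57 against 0.66 over all. Among piRNAs with undivided reads the largest was 21ur-507, with 315 and 225 RPM in disl-2(how27) and 48.7 and 38.7 RPM in disl-2(tm5337) (2.60 ± 0.20, adjusted p = 3e-17). 21ur-3534 had 27.0 and 20.8 RPM in disl-2(how27) and 5.03 and 3.97 RPM in disl-2(tm5337) (2.28 ± 0.26, adjusted p = 6.03e-11). Opposite to these, 21ur-5702 had 90.4 and 59.3 RPM in disl-2(how27), against 165 and 106 RPM in disl-2(tm5337) (-0.85 ± 0.22, adjusted p = 0.000805). Without disl-2(tm5337) replicate 1 or disl-2(how27) replicate 2 that difference did not pass (-0.54 and -0.55). After rescaling, which removed a shift of 0.64 in the median of all piRNAs, 77 were higher and 67 lower (25.7% and 22.8% of all). The 12 lower ones became 3 without disl-2(tm5337) replicate 1 and 6 without disl-2(how27) replicate 1 or without its replicate 2.

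**Figure D3:**
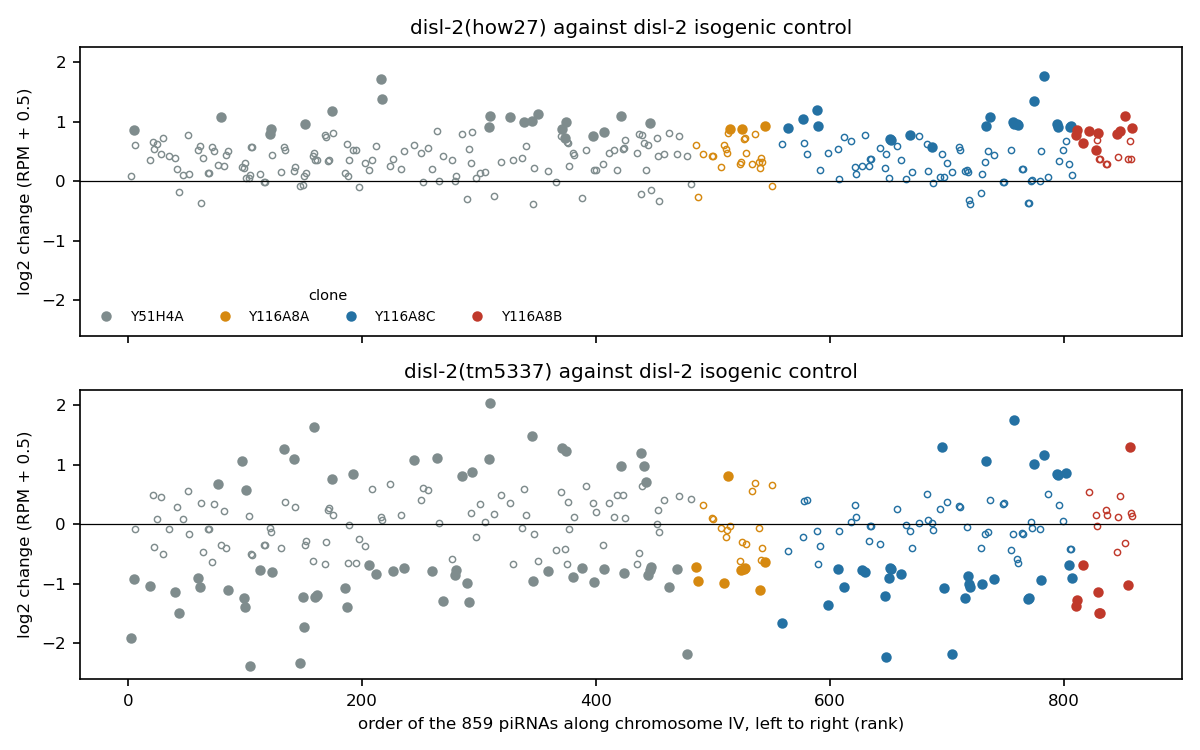
Log2 change of RPM + 0.5 (vertical) for the 281 tested piRNAs, placed by their rank among the 859 along chromosome IV from left to right and coloured by clone; filled points passed adjusted p 0.05. In disl-2(how27) all 54 filled points lie above 0, while in disl-2(tm5337) 31 lie above and 83 below 0, with both directions in each of the 4 clones.

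In the henn-1 background, where piRNAs lack the 3′ methyl group, members with and without the disl-2 mutation differed in both directions. Of 476 tested, 77 were higher in the double than in the single mutant (16.2%, against 17.7% of all piRNAs) and 54 lower (11.3%, against 9.99%), with a median of -0.02 against 0.12 over all. 21ur-889 had 22.5 and 25.1 RPM in the double mutant, against 5.20 and 1.33 RPM in henn-1 (2.91 ± 0.49, adjusted p = 0.0128). 21ur-4934, inside uroc-1, had 214 and 302 RPM in the double mutant, against 87.5 and 22.1 RPM in henn-1 (2.52 ± 0.58, adjusted p = 0.0233). The henn-1 libraries themselves lay apart by several fold in both of these.

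21ur-6357, inside the gene Y51H4A.1, fell most among the named piRNAs, with 4.27 and 3.26 RPM in the double mutant and 20.6 and 24.6 RPM in henn-1 (-2.44 ± 0.27, adjusted p = 0.0120). It was near absent outside henn-1 and parn-1 strains: 0.394 and 0.057 RPM in disl-2(how27) mutants, 0.227 and 0.112 RPM in their isogenic control, and 0.228 and 0.393 RPM in the pup-1 paired control. None of the 10 abundant piRNAs passed, and all 10 were lower on average in the double mutant, with changes between -0.99 for 21ur-4508 and -0.02 for 21ur-5702. After rescaling, 3 of the 10 passed as lower by limma: 21ur-4508 (-1.24, adjusted p = 0.0440), 21ur-507 (-1.08, adjusted p = 0.0425) and 21ur-4983 (-0.99, adjusted p = 0.0462).

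After rescaling, which removed a shift of 0.22 in the median of all piRNAs, 59 were higher and 83 lower (13.2% and 15.8% of all). The higher ones numbered 179 without henn-1 replicate 1, and 29 and 22 without double-mutant replicates 1 and 2. The lower ones numbered 147 and 108 without henn-1 replicates 1 and 2, and 15 and 11 without double-mutant replicates 1 and 2.

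In the parn-1 background, where 3′ ends stay untrimmed, more members were higher than lower with the disl-2 mutation. Of 222 tested, 39 were higher in the double than in the single mutant (17.6%, against 24.5% of all piRNAs) and 16 lower (7.21%, against 10%), with a median of 0.15 against 0.22 over all. When low values were not filtered out, limma called 0 of 773 members higher and 0 lower (144 at an unadjusted p under 0.05), so every call given here for parn-1 was lost. The same held over all piRNAs, with 0 higher and 0 lower. 21ur-1088 had 30.0 and 22.7 RPM in the double mutant, against 7.99 and 9.68 RPM in parn-1 (1.52 ± 0.28, adjusted p = 1.66e-06). 21ur-7562, the second most abundant in the controls, had 54.6 and 44.1 RPM in the double mutant, against 26.6 and 25.9 RPM in parn-1 (0.89 ± 0.21, adjusted p = 0.00031). The libraries of the 2 strains did not overlap in either, which the naming rule requires of 21ur-1088. 21ur-1551 fell, with 2.35 and 3.61 RPM in the double mutant and 9.80 and 5.91 RPM in parn-1 (-1.25 ± 0.32, adjusted p = 0.0009). 21ur-4934, which rose in the henn-1 background, was lower here, with 20.3 and 15.4 RPM in the double mutant and 33.4 and 27.9 RPM in parn-1 (-0.77 ± 0.24, adjusted p = 0.00843). That opposite course was not tested as a difference. Without parn-1 replicate 1 the falls of 21ur-1551 and 21ur-4934 did not pass (-0.91 and -0.64), nor did that of 21ur-4934 without parn-1 replicate 2 (-0.89).

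After rescaling, which removed a shift of 0.23 in the median of all piRNAs, 26 were higher and 40 lower (17.7% and 18.7% of all). The higher ones numbered 21 without double-mutant replicate 1 and 16 without parn-1 replicate 1 or without its replicate 2. The lower ones numbered 10 and 27 without double-mutant replicates 1 and 2, and 4 and 10 without parn-1 replicates 1 and 2.

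In pup-1(tm1021) mutants most of these piRNAs were lower than in the paired control. Of 269 tested, 13 were higher (4.83%, against 4.77% of all piRNAs) and 160 lower (59.5%, against 53.3%), with a median of -0.90 against -0.78 over all. All 10 abundant piRNAs fell, by 0.98 for 21ur-5702 and by up to 2.36 on the log2 scale for 21ur-6719, whose reads are divided. The paired control was part of the ranking that picked these 10, which favours falls against it. 21ur-4508 had 60.8 and 45.8 RPM in pup-1, against 207 and 225 RPM in the control (-2.02 ± 0.27, adjusted p = 8.93e-07). Among the less abundant, 21ur-8500, inside uroc-1, had 1.31 and 1.16 RPM in pup-1, against 17.2 and 14.5 RPM in the control (-3.23 ± 0.34, adjusted p = 2.91e-08). 21ur-3099 had 1.68 and 1.32 RPM in pup-1, against 16.9 and 15.6 RPM in the control (-3.07 ± 0.33, adjusted p = 3.69e-08). In all 3 the pup-1 libraries lay far below the control libraries.

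The 13 that rose included 21ur-1563, with 19.2 and 14.5 RPM in pup-1 and 3.23 and 5.51 RPM in the control (1.86 ± 0.38, adjusted p = 0.000187), and 21ur-849, inside uroc-1, with 103 and 84.7 RPM in pup-1 and 41.6 and 44.0 RPM in the control (1.12 ± 0.26, adjusted p = 0.000741). Rescaling removed a shift of -0.72 in the median of all piRNAs and gave 55 higher and 67 lower (19% and 21.2% of all). 21ur-8500, 21ur-3099, 21ur-4508, 21ur-1563 and 21ur-849 passed there too, while 4 of the 10 abundant ones, 21ur-7562, 21ur-4983, 21ur-6291 and 21ur-5702, did not. Without paired control replicate 2 the rises numbered 8. Without pup-1 replicate 2 the falls of 21ur-4983 and 21ur-6291 did not pass (-0.85 and -0.96), nor did that of 21ur-6291 without paired control replicate 1 (-0.87).

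In the pup-1 doubles with disl-2(how27), about as many members were higher as lower than in pup-1(tm1021). Of 269, 59 were higher (21.9%, against 25.4% of all piRNAs) and 60 lower (22.3%, against 16.7%), with a median of 0.05 against 0.09 over all. In the doubles with disl-2(tm5337), 71 were higher (26.4%, against 23.8%) and 29 lower (10.8%, against 9.57%), with a median of 0.18 against 0.19 over all. Both comparisons use the same pup-1(tm1021) libraries.

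Among the piRNAs that the naming rule admits, 21ur-4983 had the largest rise in both, at 141 and 182 RPM in doubles with disl-2(how27) and 227 and 129 RPM in doubles with disl-2(tm5337), against 53.2 and 29.9 RPM in pup-1 (1.99 ± 0.30, adjusted p = 1.08e-05, and 2.09 ± 0.30, adjusted p = 1.49e-05). 21ur-4508 had 178 and 217 RPM in the doubles with disl-2(how27) and 207 and 131 RPM in those with disl-2(tm5337), against 60.8 and 45.8 RPM in pup-1 (1.89 ± 0.27, adjusted p = 6.34e-06, and 1.63 ± 0.27, adjusted p = 8.08e-05). Both libraries of each double stood above both pup-1 libraries, which the naming rule requires of the rises it admits. 21ur-1563 went the other way, with 4.51 and 1.15 RPM and 2.65 and 4.37 RPM in the 2 doubles, against 19.2 and 14.5 RPM in pup-1 (-2.58 ± 0.38, adjusted p = 8.72e-06, and -2.13 ± 0.38, adjusted p = 0.000175). It lay between 0.08 and 11.6 RPM in every library outside pup-1(tm1021). 21ur-470 had 69.9 and 88.3 RPM and 129 and 79.6 RPM in the 2 doubles, against 83.4 and 61.0 RPM in pup-1, and passed in neither (adjusted p = 0.717 and 0.162).

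For the doubles with disl-2(tm5337), rescaling removed a shift of 0.11 in the median of all piRNAs and gave 67 higher and 50 lower (23.2% and 15.0% of all). With no filter on low values, 33 of 810 members were higher and 9 lower in those doubles, against 639 and 232 of about 13700 piRNAs. In the doubles with disl-2(how27), 30 members were then lower, against 646 of all piRNAs. With disl-2(how27), the higher ones numbered 31 without pup-1(tm1021) replicate 2 and the lower ones 18 and 34 without its replicates 1 and 2. With disl-2(tm5337), the higher ones numbered 26 without double-mutant replicate 1 and 47 and 26 without pup-1(tm1021) replicates 1 and 2. The lower ones numbered 18 and 11 without that double's replicates 1 and 2, 7 and 11 without pup-1(tm1021) replicates 1 and 2, and 17 and 16 without paired control replicates 1 and 2.

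**Figure D4:**
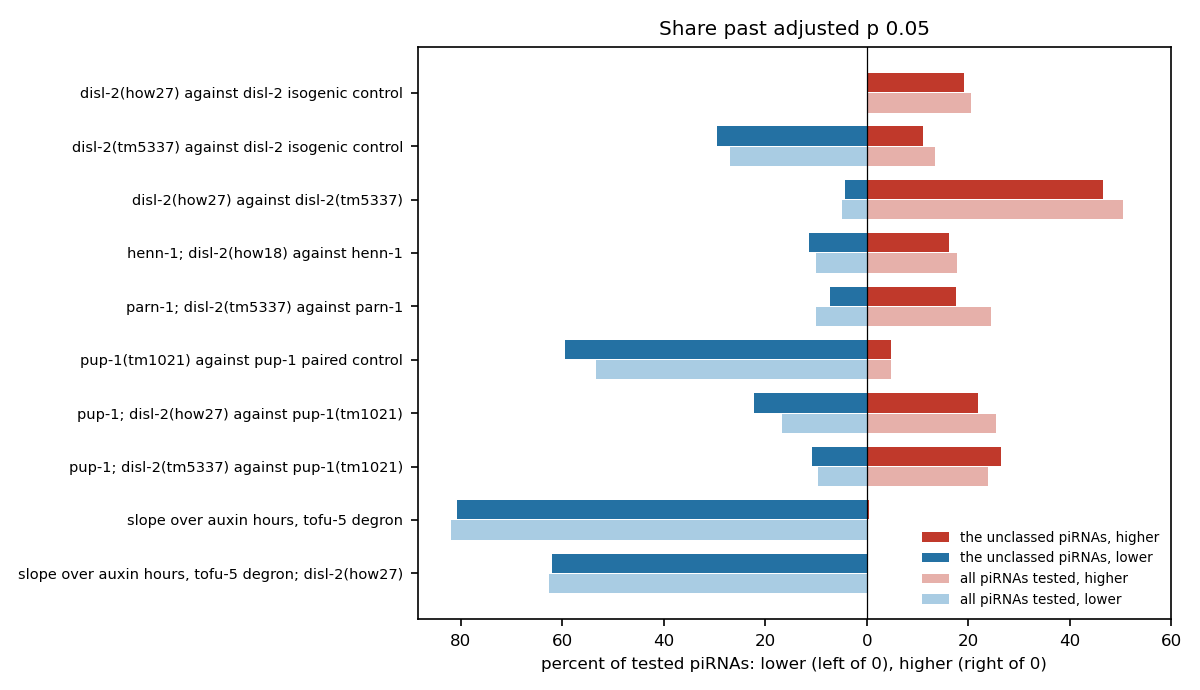
Percent of tested piRNAs that passed adjusted p 0.05, higher to the right and lower to the left of 0, in each steady-state comparison and for the slope over auxin hours; dark bars are the 859 and pale bars all piRNAs tested. The widest gap between a dark and a pale bar is in parn-1, where 17.6% of the tested members and 24.5% of all piRNAs were higher.

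The time course asked how fast these piRNAs are lost once TOFU-5 is depleted. In the degron strain with disl-2(how27) the summed level had means of 2301, 2039, 2096, 1484 and 1213 RPM at 0, 2, 4, 6 and 12 h. In the degron strain with no disl-2 mutation listed it had means of 2975, 2592, 1943, 1495 and 1177 RPM. At 12 h, 52.7% was left with disl-2(how27) and 39.6% without it. At 0 h the libraries had 2005 and 2598 RPM with disl-2(how27), against 2740 and 3210 RPM without it.

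Log2 level was regressed on hours within each strain. With disl-2(how27), 201 of 208 slopes were below 0 and 7 above. Of these, 129 passed as falling (62.0%, against 62.7% of all piRNAs) and 0 as rising (against 0.195%), and the falling ones had a median half-life of 11.2 h, against 11.1 h over all falling piRNAs. No member slope was above 0 at an unadjusted p under 0.05, and voom gave 0 too. Without disl-2(how27), 205 of 208 slopes were below 0 and 3 above. Of these, 168 passed as falling (80.8%, against 81.9%) and 1 as rising (0.481%, against 0.195%), and the median half-life was 8.59 h, against 8.55 h over all.

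21ur-11838 fell fastest among the named piRNAs without disl-2(how27), with 5.81 and 6.12 RPM at 0 h and 0.586 and 0.893 RPM at 12 h, a half-life of 4.87 h (slope -0.21 ± 0.03 per h, adjusted p = 3.41e-06). 21ur-4508 had 102 and 151 RPM at 0 h and 22.6 and 25.6 RPM at 12 h, a half-life of 5.21 h (-0.19 ± 0.02 per h, adjusted p = 2.41e-07). 21ur-7562 had 102 and 114 RPM at 0 h and 26.5 and 23.3 RPM at 12 h, a half-life of 5.74 h. Each was lower at 12 h than at 0 h in both libraries.

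A few slopes lay near 0. 21ur-2937, inside Y51H4A.5, had 17.1 and 15.9 RPM at 0 h and 15.1 and 18.4 RPM at 12 h (0.00 ± 0.02 per h, adjusted p = 0.933), and in the disl-2(how27) strain 10.9 and 11 RPM at 0 h and 12.2 and 16.0 RPM at 12 h (0.02 ± 0.02 per h, adjusted p = 0.542). 21ur-4983, one of the 10 most abundant, had 44.2 and 60.3 RPM at 0 h and 32.7 and 52.6 RPM at 12 h without disl-2(how27) (-0.03 ± 0.03 per h, adjusted p = 0.299). At 6 h it was lower in that strain, at 30.4 and 23.1 RPM, below both 0 h libraries. With disl-2(how27) it had 45.8 and 53.2 RPM at 0 h, 27.5 and 23.9 RPM at 6 h and 33.5 and 38.9 RPM at 12 h. A straight line over hours does not capture this dip. The other 9 abundant piRNAs fell in both strains. The single rising member was 21ur-51, named after its values were seen, with 2.45 and 2.15 RPM at 0 h and 4.10 and 3.25 RPM at 12 h (0.06 ± 0.02 per h, adjusted p = 0.0157). Without 12 h replicate 1 of that strain limma called 0 slopes rising (156 members in either direction at an unadjusted p under 0.05).

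**Figure D5:**
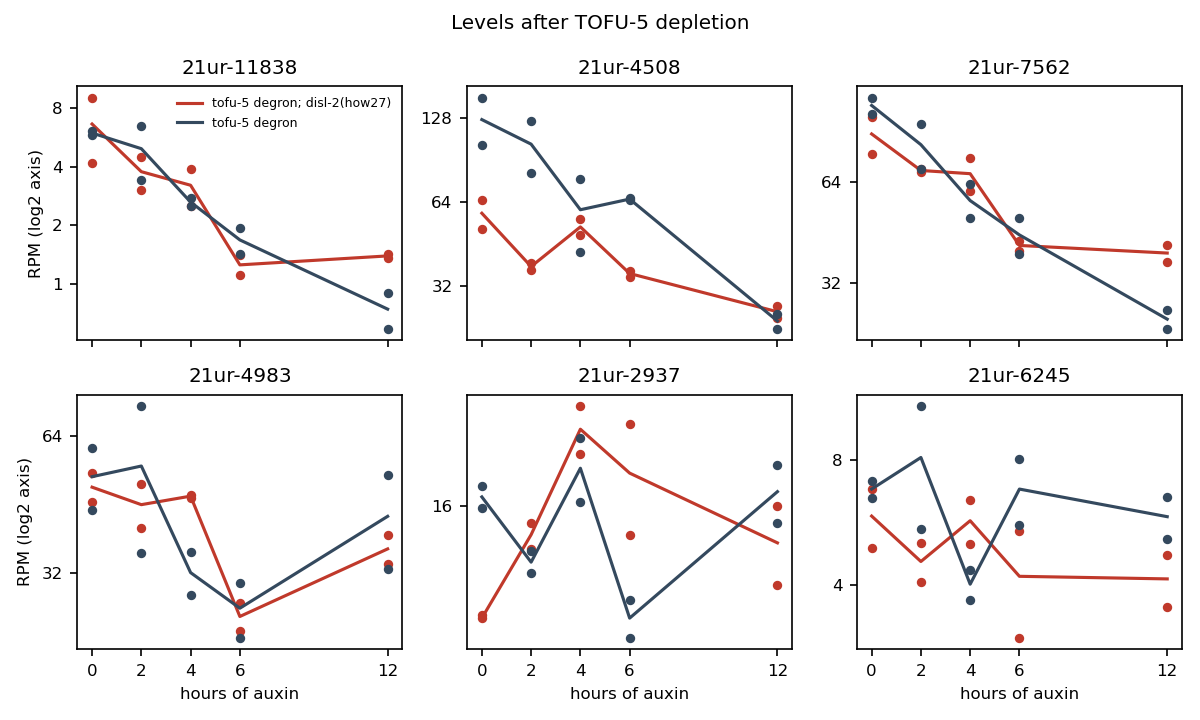
RPM on a log2 axis over hours of auxin for 6 of the named piRNAs in the degron strain with disl-2(how27) (red) and without disl-2(how27) (dark); points are libraries and lines join the means. 21ur-11838, 21ur-4508 and 21ur-7562 decline, while no slope of 21ur-4983, 21ur-2937 or 21ur-6245 passed.

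No slope difference between the strains passed, in the 208 members or in all 4112 piRNAs (0 higher and 0 lower, 0.0% of all in each direction). At an unadjusted p under 0.05, 17 members had a difference above 0 and 0 below, against 520 of all 4112 piRNAs in either direction. With voom none was called either, and 15 members and 483 of all piRNAs were at that unadjusted level. The median difference was 0.03 per h, as over all piRNAs, and 166 of 208 were above 0, against 3357 of 4112 over all piRNAs. 21ur-4508 had the largest difference among the 10 abundant piRNAs (0.11 ± 0.03 per h, adjusted p = 0.197 by limma), with 51.5 and 65.3 RPM at 0 h and 27.2 and 24.8 RPM at 12 h in the disl-2(how27) strain. The strains' libraries overlapped at 12 h and not at 0 h. Rescaling, which here removes the shared loss, left 4 slopes that passed above 0 and 3 below with disl-2(how27) (2.41% and 1.48% of all) and 25 that passed above and 18 below without disl-2(how27) (11.4% and 13.4% of all). Without disl-2(how27) 12 h replicate 2, 85 slopes of that strain passed as falling.

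Counts per clone are given on the scale as deposited, and differences between clones were not tested. In disl-2(how27) against its control, 10 of 19 Y116A8B members were higher (52.6%), 20 of 82 in Y116A8C (24.4%), 3 of 25 in Y116A8A (12%) and 21 of 155 in Y51H4A (13.5%). These shares stand against 20.6% over all piRNAs. In the parn-1 double against the single mutant, 4 of 10 were higher in Y116A8B (40%), 13 of 69 in Y116A8C (18.8%), 8 of 18 in Y116A8A (44.4%) and 14 of 125 in Y51H4A (11.2%), against 24.5% over all piRNAs. In Y116A8B, the rightmost clone, 10 of 17 were higher in the pup-1 doubles with disl-2(how27), against 25.4% of all piRNAs. In that clone 15 of 15 slopes passed as falling without disl-2(how27), against 81.9%. Its shares were nearer to those of all piRNAs with henn-1 (14.8% higher, against 17.7%) and in pup-1(tm1021) (58.8% lower, against 53.3%). Rescaling left 4 of all 281 tested members higher in disl-2(how27). In Y51H4A, the leftmost, 25 of 150 were higher and 39 lower in the pup-1 doubles with disl-2(how27), against 25.4% and 16.7% of all piRNAs.

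The members tested inside cnnm-1 passed together in several comparisons, the henn-1 one not among them. Of its 10 members, 3 passed the filter in the disl-2 experiment, 21ur-114, 21ur-8940 and 21ur-4684. These 3 belong to Y116A8B, so their calls are among those counted for that clone above. All 3 were higher in disl-2(how27) (0.64 to 0.86) and lower in disl-2(tm5337) (-1.38 to -0.68) than in their shared control, where 20.6% and 26.9% of all piRNAs passed in those directions. The 3 rises in disl-2(how27) did not pass without replicate 1 of that mutant or with no filter on low values. All 3 were also higher in the parn-1 double than in the parn-1 single mutant (1.08 to 1.25, against 24.5% of all piRNAs higher), a call lost with no filter. Their slopes passed as falling in both strains of the time course, as did those of most piRNAs (81.9% without disl-2(how27) and 62.7% with it). 21ur-114 had 25.7 and 20.0 RPM in disl-2(how27) mutants, 5.99 and 3.67 RPM in disl-2(tm5337), and 15.1 and 11.2 RPM in the control. For 21ur-4684 neither the rise in disl-2(how27) nor the fall in disl-2(tm5337) passed after rescaling (adjusted p = 0.927 and 0.0823). Of all 281 members tested, rescaling left 4 higher in disl-2(how27), against 1.35% of all piRNAs. The 4 cnnm-1 members tested in the pup-1 experiment were higher in both doubles than in pup-1(tm1021), by 0.72 to 1.18 with disl-2(how27) and by 0.91 to 1.37 with disl-2(tm5337). Of all piRNAs, 25.4% and 23.8% were higher in those 2 comparisons. With 1 library left out, the change of 21ur-4684 in the doubles with disl-2(how27) ranged from 0.31 to 1.12, and its call was lost in most of those fits. Its change in disl-2(tm5337) ranged from -0.99 to -0.36, with the call lost in some. The change of 21ur-114 with parn-1 ranged from 0.80 to 1.35, and its call was lost in most of the fits. None of the 7 cnnm-1 members tested in the henn-1 experiment passed, where 17.7% of all piRNAs were higher and 9.99% lower.

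Members inside sta-1 and inside uroc-1 passed in both directions within a comparison. In the disl-2(tm5337) comparison 1 of 6 in sta-1 was higher and 1 lower, against 13.5% and 26.9% of all piRNAs. In pup-1 against its control 3 of 6 in uroc-1 were higher and 2 lower, against 4.77% and 53.3% of all piRNAs. Summed over its 15 members, uroc-1 stood at 297 and 275 RPM in pup-1, against 269 and 253 RPM in the paired control.

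Comparisons from different experiments share no library and can be set side by side. Of 185 members tested in both, 37 were higher in disl-2(how27) against its control and 31 in the parn-1 double against the parn-1 single mutant, and 12 were higher in both (32.4% of the 37 and 38.7% of the 31). Over all piRNAs the shared part was 49.2% and 41.2% of the 2 lists. Across these 185 members the 2 changes had a Spearman correlation of 0.495 and over 3456 piRNAs one of 0.494, given as a description, since members of 1 library share its depth. The parn-1 double carries the allele disl-2(tm5337). Of the same 185 members 19 were higher in disl-2(tm5337) alone against its control, and 3 were higher there and in the parn-1 double (15.8% of the 19 and 9.68% of the 31, against 19.3% and 10.7% over all piRNAs). The Spearman correlation of these 2 changes was -0.028 over the members and -0.058 over 3456 piRNAs. Of 261 members, 79 fell in disl-2(tm5337) and 153 in pup-1(tm1021), and 60 fell in both (75.9% and 39.2%, against 70.9% and 38.4% over all piRNAs). No member of 185 was higher in disl-2(how27), in the henn-1 double and in the parn-1 double together, against 74 of 3456 piRNAs.

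Unclassed piRNAs of the neighbouring Y57G11 and Y105C5 clones were counted in the same fits, without a test of the difference. In disl-2(how27), 12.8% of tested Y57G11 and 12.9% of tested Y105C5 piRNAs were higher, against 19.2% of the Y51H4A and Y116A8 ones. Over all piRNAs the share was 20.6%. On loss of disl-2 in parn-1 mutants, 7.21% of the Y51H4A and Y116A8 piRNAs were lower, against 17.5% of the Y57G11 and 15.9% of the Y105C5 ones. Over all piRNAs the share was 10%. The low share depended on the scale: after rescaling, 40 of the 222 Y51H4A and Y116A8 piRNAs were lower, against 18.7% of all piRNAs. No rescaled count is given for the neighbouring clones. With no filter on low values, 0 members and 0 of all piRNAs were lower.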

How the data were processed

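The authors deposited 1 table of piRNA levels in RPM, that is, reads scaled to library depth, per the labels and file headers. Small RNAs were treated with the phosphatase PIR-1 before ligation per the labels' protocols, and Trim Galore and Bowtie are the tools in the submitters' processing notes. No coordinates are printed, since the genome build, like the tools' versions, is not given in the sources used here. RefSeq WBcel235 served only for names and gene order, and no sequences are shown. The table was used for 42 libraries; 10 other samples of the series are not analysed here.

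Depths of 8807176 to 52798564 reads were recovered from the RPM steps. Between 85.8% and 88.2% of values per library were whole reads within 0.01 read and the rest fractions of a read, so no count test was run. A level of 0 allows 3 reads. This covers counting error only. limma 3.58.1 in R 4.3.3 was fitted to log2(RPM + 0.5) with a trended prior, separately for each of 5 experiments, over piRNAs that averaged 1 RPM or more. Fold changes on this scale understate the change of low piRNAs. p-values were adjusted by Benjamini-Hochberg over all piRNAs tested, with a threshold of 0.05. Time-course slopes used all 20 libraries. The code was tested on simulated data.

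Named piRNAs are the 10 most abundant in the controls and, per direction, up to 6 of the largest called changes with a mean of at least 5 RPM, groups that do not overlap and undivided reads, or for slopes the 6 steepest and the 6 nearest 0. The members, lists and rules were chosen with earlier results of these data known. Alternatives were a pseudocount of 2, no filter, libraries rescaled to equal medians, limma voom on estimated reads, a replicate block, and each library left out in turn.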

Additional observations from a re-analysis of the deposited data

How the results depend on the processing

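Under rescaling to equal medians, counts of members higher and lower became 4 and 7 for disl-2(how27), 56 higher for disl-2(tm5337), 77 and 67 between the alleles, 83 lower with henn-1, 40 lower with parn-1, 55 and 67 for pup-1, 50 lower for the pup-1 doubles with disl-2(tm5337), 25 and 18 for slopes without disl-2(how27), and 4 and 3 for slopes with disl-2(how27). Rescaling also turned the sign of the members' median change for disl-2(how27) (-0.06445), between the alleles (-0.01711), with parn-1 (-0.09744), for the pup-1 doubles with disl-2(how27) (-0.01783), for the slopes (0.0002771 without disl-2(how27) and 0.001498 with disl-2(how27)) and for the slope difference (-0.0009077). The cause was not tested. With no filter, which tests more piRNAs, limma called 0 members higher for disl-2(how27) (155 at an unadjusted p under 0.05) and 0 higher and 0 lower with parn-1 (144). Over all piRNAs it also called 0 in both. In the pup-1 experiment, 810 members and about 13700 piRNAs were then tested. There 250 members were lower for pup-1, against 4023 of all piRNAs, and 30 for the pup-1 doubles with disl-2(how27), against 646. For those with disl-2(tm5337), 33 were higher and 9 lower, against 639 and 232 of all piRNAs. With disl-2(how27), 3 of 793 member slopes passed as rising, against 48 of about 13800.

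Leaving out 1 library gave 0 to 89 higher for disl-2(how27), 16 to 48 higher and 47 to 96 lower for disl-2(tm5337), 92 to 159 and 3 to 12 between the alleles, 22 to 179 and 11 to 147 with henn-1, 16 to 49 and 4 to 27 with parn-1, 8 to 17 and 109 to 173 for pup-1, 31 to 60 and 18 to 63 for the pup-1 doubles with disl-2(how27), and 26 to 77 and 7 to 39 for those with disl-2(tm5337). Slopes gave 0 to 1 rising and 151 to 170 falling without disl-2(how27) and 85 to 136 falling with disl-2(how27). Where a group was left with 1 library, that library was assumed to vary like the others.

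The main fits did not use the replicate numbers as pairs. Over piRNAs, deviations of same-numbered libraries correlated between -0.441 and 0.448 in the time course and -0.169 and 0.192 in the disl-2 experiment. The range was -0.319 to 0.223 in the pup-1 experiment, and the values were -0.0692 with henn-1 and -0.0643 with parn-1. A correlation over piRNAs cannot see a shift shared by a whole library, so it cannot tell whether the numbers pair the samples. In every group of the disl-2 experiment the summed level was higher in replicate 1 than in replicate 2. With the replicate block, members higher and lower numbered 75 and 0 for disl-2(how27), 33 and 87 for disl-2(tm5337), 134 and 13 between the alleles, 91 and 69 with henn-1, 37 and 14 with parn-1, 15 and 161 for pup-1, 62 and 60 and 67 and 30 for the 2 pup-1 doubles, and 1 and 167 and 0 and 126 for the slopes.

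Among the named piRNAs, 12 changes turned direction with rescaling. In disl-2(how27) against the control these were 21ur-7562, whose call was lost (-0.0548), and, without a call in either fit, 21ur-4508 (-0.479), 21ur-507 (-0.1623), 21ur-470 (-0.5726), 21ur-4290 (-0.4925), 21ur-6719 (-0.1203), 21ur-6291 (-0.4981) and 21ur-5702 (-0.1312). The others were 21ur-470 in disl-2(tm5337) (0.0658), 21ur-7562 and 21ur-470 between the alleles (-0.3612 and -0.6384) and 21ur-4290 with parn-1 (-0.2228). With voom, 21ur-470 in disl-2(how27) turned to -0.001. Leaving out 1 library turned the direction in 16 results, none of them of a called change. The changes concerned were, in disl-2(how27), 21ur-4508 (-0.1011 to 0.3072), 21ur-470 (-0.0978 to 0.1149) and 21ur-6291 (-0.0182 to 0.1843), in disl-2(tm5337) 21ur-7562 (-0.1602 to 0.4693), between the alleles 21ur-470 (-0.0119 to 0.2007), with henn-1 21ur-5702 (-0.1806 to 0.1447), with parn-1 21ur-507 (-0.2397 to 0.2031), 21ur-4290 (-0.1533 to 0.2407) and 21ur-6291 (-0.3818 to 0.2995), and in the pup-1 doubles with disl-2(how27) 21ur-470 (-0.0853 to 0.3625). The cause was not tested.

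With their direction kept, named calls were lost in 98 results with a library left out, against 836 unchanged and 18 gained, in 36 with no filter, in 15 with rescaling, in 3 with the replicate block, in 1 with voom and in 0 with a pseudocount of 2. Of the 372 members under the filter in every experiment, 318 never exceeded 1 RPM and none exceeded 2.14 RPM in a library, and no change was tested in them.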
